A study of Mus musculus with 14 samples.

Results

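The 10 genes described here encode receptors, lysosomal proteins and a lectin of macrophages. With most of them macrophages bind, engulf or break down debris, dying cells and microbes. They are Msr1, Marco, Cd68, Lgals3, Gpnmb, Mertk, Axl, Cd14, Lyve1 and Folr2. They were taken from 19938 genes by symbol, through the probe set whose array annotation gives that symbol alone, and each of the 10 had exactly 1 such probe set and 0 shared with another gene. RNA came from the plantaris, a calf muscle, of male C57BL/6J mice aged 5 months. The plantaris was overloaded by synergist ablation, an operation that takes away the calf muscles working beside it, and was studied at days 0, 1, 3, 5, 7, 10 and 14, where the day 0 labels name no treatment. Each day had 2 Affymetrix Mouse Gene 1.0 ST arrays, 1 of a pool of right muscles and 1 of a pool of left muscles, each pool from 6 animals. None of the samples is from sham-operated mice, and so the operation and the overload cannot be told apart. Whether both legs of 1 animal went into a day's right and left pools is not in the labels, and p-values measure only how far pools differ.

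Macrophages sense their surroundings through scavenger receptors, which bind modified lipoproteins, bacterial surfaces and cell debris with broad specificity. Dying cells are recognised through exposed phosphatidylserine, which bridging proteins such as Gas6 and protein S connect to the receptor tyrosine kinases Mertk, Axl and Tyro3. Engulfed material is then degraded in lysosomes, whose membranes carry glycoproteins such as Cd68. In injured or overloaded muscle, monocytes enter and become inflammatory macrophages. Macrophages that clear debris and favour repair follow, beside a resident population that carries Lyve1 and Folr2.

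Levels are log2 of the deposited intensity, which ranged from 5.9 to 29501.5, with array medians between 242.8 and 254.9. Differences are between day means, later day minus earlier day, ± SE from a limma fit over all 14 arrays, with 2 pools at each day. A gene was called changed at a limma adjusted p (Benjamini-Hochberg over all genes) under 0.05, and every adjusted p given is of this kind. The tissue label was checked against 10 genes of muscle fibres, whose mean level was 13.99 in the right and 14.00 in the left pool of day 0. All 10 fibre genes were called lower at day 3 and again at day 7. Transcripts of hepatocytes were present unevenly. The mean level of 12 hepatocyte genes was 12.32 in the right pool of day 1 and 12.20 in the left pool of day 0. In the other 12 pools it lay between 8.01 and 11.11. The day 0 mean joined this rich left pool with a right pool at 9.98, inside the range of the other pools. The median difference of these genes from the day 0 mean was -1.98, -2.43, -1.77 and -1.94 at days 5, 7, 10 and 14. Of the 12, 3, 10, 0 and 0 were called lower at those days, where 38.1%, 37.8%, 27.5% and 20.7% of all genes fell. Levels of different probe sets are not compared, apart from a ranking of signal strength. In pooled tissue RNA, more cells of a type and more RNA per cell cannot be told apart.

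Of the 10 genes, 8 stood above day 0 at every later day: Msr1, Cd68, Lgals3, Gpnmb, Mertk, Axl, Cd14 and Folr2. Lyve1 rose at day 3 and passed the test at no other day, and Marco fell at every later day. At day 1, 8 rose and 1 fell, against 20.3% and 34.7% of all genes. At day 3, 9 rose and 1 fell, where 24.2% of all genes rose and 23.4% fell. At days 5, 7, 10 and 14 the counts were each 8 up and 1 down, where 27.0%, 28.5%, 23.6% and 21.4% of all genes rose and 38.1%, 37.8%, 27.5% and 20.7% fell. Most genes on the array varied over the time course, and the moderated F test over the 7 days called 71.3% of all genes and all 10 of these.

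Many of the rises exceeded 2-fold. Called rises of more than 2-fold numbered 6 of the 10 on day 1 (6.12% of all genes), 7 on day 3 (7.52%) and 7 on day 5 (8.64%). They numbered 8 on day 7 (9.68%), 6 on day 10 (6.69%) and 6 on day 14 (4.90%). For days 1, 3, 5, 7, 10 and 14 the median difference of the 10 genes was 1.24, 2.12, 1.93, 1.69, 1.31 and 1.08. Over all genes the median lay between -0.16 and -0.07, and with all arrays set to equal medians it lay between -0.28 and -0.12, where the count of rising members stayed at 8 or 9 at every day. The genes did not share 1 time course: the highest day mean was at day 1 for Cd14, at day 3 for Msr1, Cd68, Lgals3 and Lyve1, at days 3 and 5 alike for Folr2 (10.93 each), at day 7 for Gpnmb and Mertk, at day 14 for Axl and at day 0 for Marco.

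**Figure D1:**
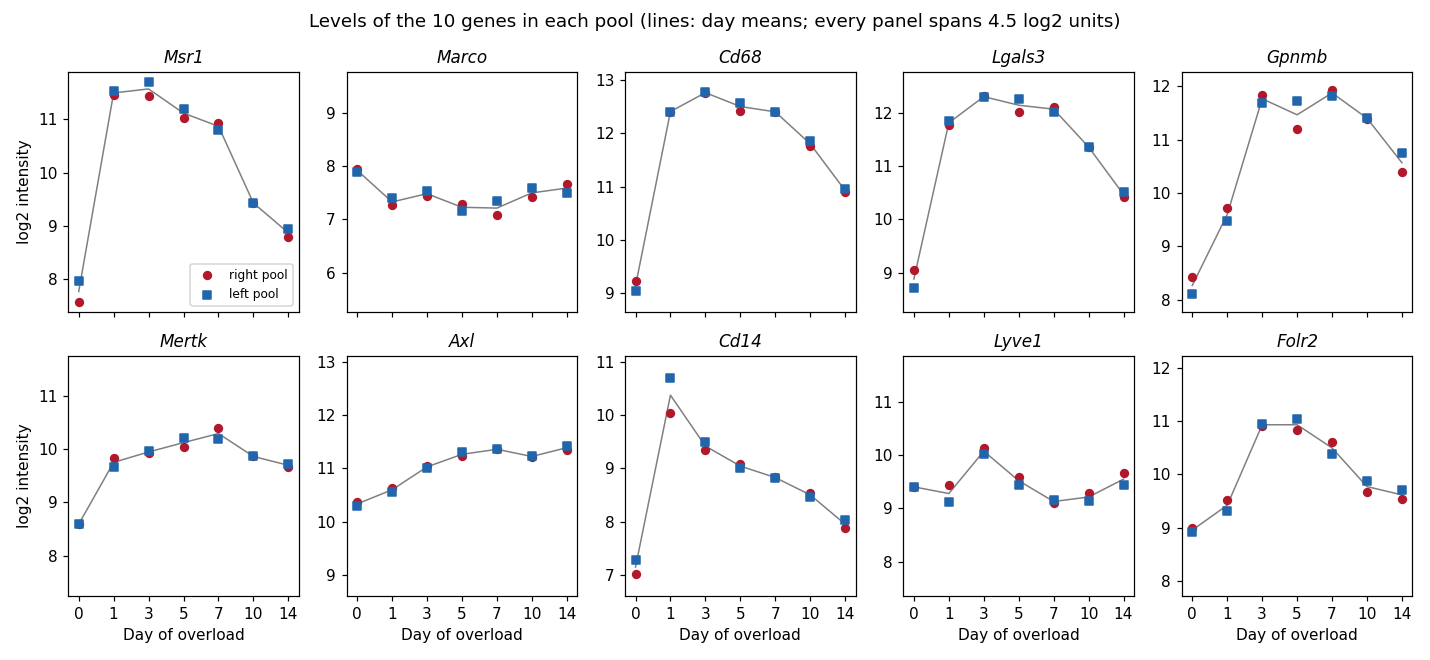
Level of each gene in log2 intensity (vertical axis) in every pool, by day of overload (horizontal axis, days drawn at equal steps), with right pools as red circles, left pools as blue squares and day means as lines. Cd14 is highest at day 1 with day 1 pools at 10.04 and 10.70, Gpnmb reaches 11.87 at day 7, Axl is highest at day 14 with a mean of 11.39, and Marco is highest at day 0.

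**Figure D2:**
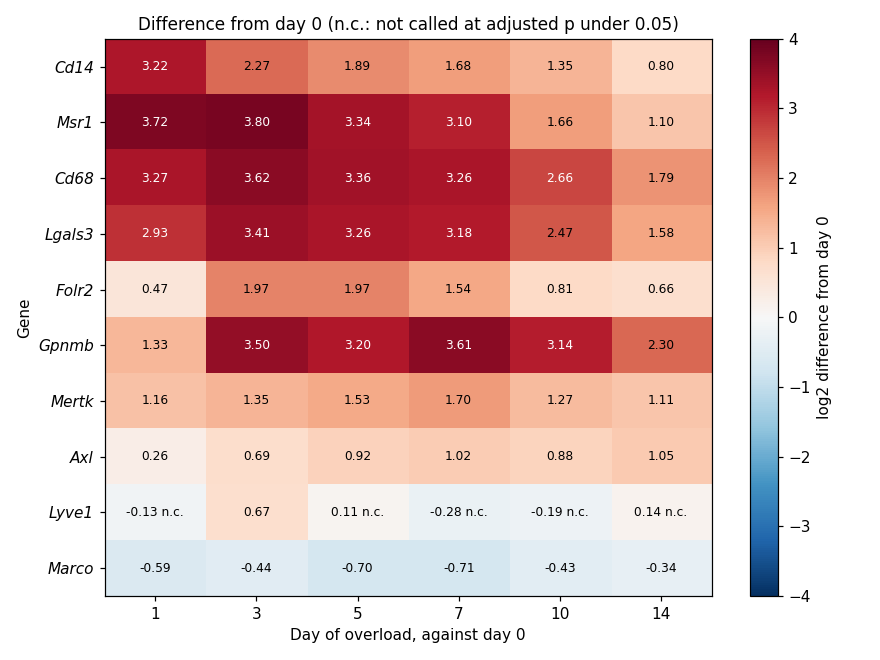
Difference from day 0 in log2 units for each gene (rows) at each later day (columns), with red above and blue below day 0. The letters n.c. mark the 5 differences that were not called, all of Lyve1, and the Cd14 row is palest at day 14, at 0.80, and darkest at day 1, at 3.22.

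The step from day 0 to day 1 moved the most genes, with 8 higher and 1 lower, and the steps to day 3 and after day 7 followed. From day 1 to day 3, 6 of the 10 genes rose and 1 fell, where 21.5% of all genes rose and 13.2% fell. From day 3 to day 5, 0 rose and 2, Msr1 and Lyve1, fell (6.41% and 4.74% of all genes), and from day 5 to day 7, 0 rose and 0 fell (0.667% and 0.487%). At an unadjusted p under 0.05, 3 of the 10 differed between days 5 and 7. From day 7 to day 10, 0 rose and 5 fell (6.95% and 9.52%), namely Msr1, Folr2, Lgals3, Cd68 and Mertk. From day 10 to day 14, 0 rose and 4 fell (2.11% and 2.56%), namely Lgals3, Cd68, Gpnmb and Msr1. Without any 1 of the 4 pools of days 10 and 14 that count was 2, as Gpnmb and Msr1 lost their calls.

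Msr1 encodes scavenger receptor class A type 1, a trimeric receptor with a collagen-like stalk that binds modified lipoproteins and bacterial surfaces. In the right and left pools Msr1 stood at 7.58 and 7.96 on day 0, 11.46 and 11.53 on day 1, 11.44 and 11.70 on day 3, 11.03 and 11.20 on day 5, 10.94 and 10.80 on day 7, 9.43 and 9.43 on day 10, and 8.79 and 8.95 on day 14. Every pool of days 1 to 14 lay above both day 0 pools. Msr1 rose 13.2-fold at day 1 (3.72 ± 0.13, adjusted p = 3.47e-09) and 13.9-fold at day 3 (3.80 ± 0.13, adjusted p = 3.64e-09), the largest rise among the 10 genes at each of these days. Day 3 minus day 1 was 0.08 ± 0.13 (adjusted p = 0.672), with overlapping pools.

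The fall of Msr1 came mostly between days 7 and 10, by 1.44 ± 0.13 (adjusted p = 0.00043), more than in any of the other 9 genes at that step. The smaller falls from day 3 to day 5 (-0.46 ± 0.13, adjusted p = 0.0469) and from day 10 to day 14 (-0.56 ± 0.13, adjusted p = 0.0366) were marginal. Each lost its call without either pool of the 2 days compared and with all probe sets tested (adjusted p = 0.0732 and 0.0712). The first also lost it with only the arrays of the 2 days, or without any 1 pool of days 1, 7, 10 or 14. The second also lost it without either pool of day 7. At day 14 Msr1 was still 2.14-fold above day 0 (1.10 ± 0.13, adjusted p = 4.78e-05), which left 29.0% of its log2 rise at day 3. The genes whose levels followed Msr1 most closely over the 14 arrays were Vav1, Rnh1 and Cyrib, with Pearson r of 0.992, 0.990 and 0.989. Here and below r is a description with no test, since the arrays share 7 days and 2 pools a day.

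Marco encodes the other collagen-like class A scavenger receptor of the group, carried by macrophages of the splenic marginal zone, lung and liver. Its signal was weak, with a mean level at the 32.7th percentile of all genes, and it was the only one of the 10 genes called lower than on day 0. The right and left pools of Marco were at 7.95 and 7.89 on day 0, 7.26 and 7.39 on day 1, 7.43 and 7.53 on day 3, 7.29 and 7.16 on day 5, 7.08 and 7.34 on day 7, 7.41 and 7.58 on day 10, and 7.67 and 7.50 on day 14. All 12 later pools lay below both day 0 pools. It fell by 0.59 ± 0.11 at day 1 (adjusted p = 0.000657), by 0.71 ± 0.11 at day 7 (adjusted p = 0.000136) and by 0.34 ± 0.11 at day 14 (adjusted p = 0.0235). Without the left pool of day 14 the day 14 difference was -0.26 (adjusted p = 0.169), and without the right or the left pool of day 0 the adjusted p was 0.0953 or 0.0577. Without the right pool of day 1 and the left pool of day 0 together, it was 0.0542. The day 10 call was lost without the right pool of day 10 (-0.35, adjusted p = 0.0600).

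Genes as dim as Marco were also lower in their median. In the dimmest of 3 equal classes of genes, which holds Marco, the median difference on days 1, 5, 7 and 14 was -0.17, -0.28, -0.26 and -0.15. In that class 28.4%, 46.4%, 43.8% and 15.8% were called lower, against 34.7%, 38.1%, 37.8% and 20.7% of all genes. For days 3 and 10 the class median was -0.11 and -0.19, with 13.6% and 25.1% called lower against 23.4% and 27.5% of all genes. Marco lay near the upper bound of its class. In the middle class 39.9%, 35.4%, 35.8% and 20.0% were called lower on days 1, 5, 7 and 14. The genes closest to Marco over the 14 arrays were Cfap46, Cdhr3 and Dlx1, with Pearson r of 0.984, 0.983 and 0.975. The part of low signal in the fall of Marco was not tested.

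Cd68 and Lgals3 were high from day 1 to day 7 and fell at both later steps. Cd68 encodes macrosialin, a heavily glycosylated protein of late endosomes and lysosomes that is a standard marker of macrophages. Right and left pools held Cd68 at 9.24 and 9.04 on day 0, 12.41 and 12.41 on day 1, 12.76 and 12.77 on day 3, 12.43 and 12.58 on day 5, 12.40 and 12.41 on day 7, 11.76 and 11.85 on day 10, and 10.90 and 10.96 on day 14. All 12 later pools lay above both day 0 pools. Cd68 rose 9.65-fold at day 1 (3.27 ± 0.08, adjusted p = 5.24e-10) and 12.3-fold at day 3 (3.62 ± 0.08, adjusted p = 3.29e-10), and at day 14 it was 3.45-fold above day 0 (1.79 ± 0.08, adjusted p = 4.32e-08). It fell by 0.60 ± 0.08 from day 7 to day 10 (adjusted p = 0.00139) and by 0.87 ± 0.08 from day 10 to day 14 (adjusted p = 0.00273).

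Lgals3 encodes galectin-3, a lectin that binds galactosides on cell surfaces and on damaged lysosomes. Its levels in the right and left pools were 9.04 and 8.72 on day 0, 11.77 and 11.85 on day 1, 12.31 and 12.29 on day 3, 12.02 and 12.26 on day 5, 12.11 and 12.02 on day 7, 11.36 and 11.35 on day 10, and 10.41 and 10.52 on day 14. The day 3, day 5 and day 7 means were the highest and were not called different from each other. Lgals3 rose 7.61-fold at day 1 (2.93 ± 0.11, adjusted p = 4.47e-09) and 10.7-fold at day 3 (3.41 ± 0.11, adjusted p = 2.32e-09), and was 2.99-fold above day 0 at day 14 (1.58 ± 0.11, adjusted p = 7.80e-07). Over the 14 arrays Cd68 and Lgals3 had a Pearson r of 0.996 with each other, the highest among the 10 genes, and both had Ifi30, a lysosomal thiol reductase, and Tmem106a among their 3 closest genes.

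Gpnmb encodes a transmembrane glycoprotein of lysosomes and phagosomes, found in macrophages loaded with lipid or debris and also in melanocytes. It rose later than Cd68: its levels in the right and left pools were 8.42 and 8.11 on day 0, 9.71 and 9.48 on day 1, 11.84 and 11.69 on day 3, 11.20 and 11.73 on day 5, 11.93 and 11.82 on day 7, 11.39 and 11.41 on day 10, and 10.39 and 10.74 on day 14. Day 1 lay between day 0 and all later days, with no overlap. Gpnmb rose 2.51-fold at day 1 (1.33 ± 0.17, adjusted p = 6.62e-05) and a further 4.51-fold from day 1 to day 3 (2.17 ± 0.17, adjusted p = 6.26e-06), the largest rise of the 10 genes at that step. At day 7 it was 12.2-fold above day 0 (3.61 ± 0.17, adjusted p = 2.30e-08). Days 3, 5, 7 and 10 were not called different from each other, and at day 14 it was still 4.92-fold above day 0 (2.30 ± 0.17, adjusted p = 1.67e-06), the largest of the 10 differences at that day.

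The genes closest to Gpnmb over the 14 arrays were Dynll1 and the lysosomal enzymes Ppt1 and Man2b1, with Pearson r of 0.995, 0.990 and 0.988. Of 7 melanocyte genes, 2 fell at day 1 and 3 fell at day 7 (5 with equal array medians), where 34.7% and 37.8% of all genes fell. None of the 7 was called higher by limma at any day. Their signal was weak, with a mean level of 7.16 in the right and 7.15 in the left pool of day 0. Their summed intensity was between 888 and 1127 at days 1 to 14 and between 1173 and 1175 at day 0.

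Promoter sequence is shown for these 3 genes because Cd68 and Lgals3 had nearly the same time course while Gpnmb was later. Entries for 7 of the 10 genes were read from the RefSeq table (GRCm38.p6), which does not show that the table lacked the others. Each line gives the 250 bases before the annotated start, 5′ to 3′ on the gene's strand, at chr11:69666171-69666420 (minus strand), chr14:47373610-47373859 (plus strand) and chr6:49036268-49036517 (plus strand). Capitals mark matches on either strand to GAGGAA, the core bound by the myeloid factor PU.1, to TGANTCA, bound by AP-1, or to CACGTG, the E-box of lysosomal genes.
Cd68: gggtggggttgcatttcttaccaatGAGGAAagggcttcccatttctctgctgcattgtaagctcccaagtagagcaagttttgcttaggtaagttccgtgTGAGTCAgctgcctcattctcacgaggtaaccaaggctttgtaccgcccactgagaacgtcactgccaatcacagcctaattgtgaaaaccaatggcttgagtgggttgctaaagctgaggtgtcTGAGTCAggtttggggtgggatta
Lgals3: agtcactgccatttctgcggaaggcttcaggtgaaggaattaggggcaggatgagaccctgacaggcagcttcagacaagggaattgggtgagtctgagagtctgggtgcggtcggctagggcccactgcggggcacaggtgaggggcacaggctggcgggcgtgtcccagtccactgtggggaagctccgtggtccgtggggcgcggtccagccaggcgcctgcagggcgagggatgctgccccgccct
Gpnmb: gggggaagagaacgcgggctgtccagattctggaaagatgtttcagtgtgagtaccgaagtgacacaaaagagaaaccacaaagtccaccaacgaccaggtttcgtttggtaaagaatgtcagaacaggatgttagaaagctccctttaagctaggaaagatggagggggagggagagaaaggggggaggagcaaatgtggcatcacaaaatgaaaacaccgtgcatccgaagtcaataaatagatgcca

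The Cd68 window held 1 GAGGAA, starting 225 bases before the start, and 2 copies of TGANTCA, starting 149 and 24 bases before it. The Lgals3 and Gpnmb windows held 0 matches to any of the 3 motifs. Of all 32851 promoter windows of 250 bases in the table, 23.3% held GAGGAA, 6.75% held TGANTCA and 6.02% held CACGTG. A match is a string of letters and no measured binding site.

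The receptor kinases Mertk and Axl were raised at every later day, and at day 14 Mertk kept 65.1% and Axl 100% of its highest log2 difference. Mertk is the kinase through which macrophages take up apoptotic cells. For Mertk the right and left pools gave 8.59 and 8.59 on day 0, 9.83 and 9.67 on day 1, 9.93 and 9.96 on day 3, 10.03 and 10.21 on day 5, 10.40 and 10.18 on day 7, 9.86 and 9.86 on day 10, and 9.67 and 9.72 on day 14. All later pools lay above day 0, and day 1 and day 14 overlapped. Mertk rose 2.23-fold at day 1 (1.16 ± 0.09, adjusted p = 1.23e-06) and 3.25-fold at day 7 (1.70 ± 0.09, adjusted p = 4.48e-08), and was 2.15-fold above day 0 at day 14 (1.11 ± 0.09, adjusted p = 3.08e-06). Day 7 lay above day 1 by 0.54 ± 0.09 (adjusted p = 0.000503), and Mertk fell by 0.43 ± 0.09 from day 7 to day 10 (adjusted p = 0.0092). That fall lost its call without the right pool of day 7 (-0.32, adjusted p = 0.106) or without either pool of day 10.

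Axl, the kinase of the same family that binds Gas6 most tightly and is also made by fibroblasts and endothelial cells, rose more slowly and was highest at the last day. Axl stood in the right and left pools at 10.38 and 10.29 on day 0, 10.64 and 10.56 on day 1, 11.05 and 11.01 on day 3, 11.23 and 11.30 on day 5, 11.36 and 11.36 on day 7, 11.21 and 11.24 on day 10, and 11.35 and 11.43 on day 14. Days 1 and 3 each lay clear of the days before and after them. Axl was 1.20-fold above day 0 at day 1 (0.26 ± 0.07, adjusted p = 0.00698), 2.03-fold at day 7 (1.02 ± 0.07, adjusted p = 2.29e-07) and 2.07-fold at day 14 (1.05 ± 0.07, adjusted p = 5.10e-07). The day 1 call was lost without the left pool of day 0 (0.22, adjusted p = 0.0543) or the right pool of day 1 (0.22, adjusted p = 0.0542). Day 14 lay above day 3 by 0.36 ± 0.07 (adjusted p = 0.00162), while days 5, 7, 10 and 14 were not called different from each other. Of the 8 genes raised at every day, Axl alone had its highest mean at day 14.

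Markers of fibroblasts and fibro-adipogenic progenitors, cells that also make Axl, were mostly lower at day 1 and higher later. At day 1, 2 of 10 such genes rose and 7 fell, where 20.3% of all genes rose and 34.7% fell. At day 14, 9 of the 10 rose and 1 fell, and the list's median difference was 1.42, where 21.4% of all genes rose. Their summed intensity was between 59771 and 62555 at day 14, between 51595 and 51805 at day 7 and between 26844 and 28171 at day 0. The genes closest to Axl over the 14 arrays were Lims1, Nav1 and Col8a1, a collagen chain, with Pearson r of 0.992, 0.986 and 0.986. Markers of blood endothelium, which also makes Axl, were mostly higher at day 14 too. Of 10 such genes, 8 rose and 0 fell, where 20.7% of all genes fell, and their median difference was 0.54. Their summed intensity was 18020 and 19566 in the right and left pools of day 14, and 13458 and 13314 in those of day 0. The parts of fibroblasts and of endothelial cells in the rise of Axl were not tested. Over the arrays Axl and Cd14 had a Pearson r of 0.060, and Axl and Gpnmb one of 0.860.

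The ligands and the third kinase of this system were singled out after their values were seen. Gas6, the bridging ligand, fell at day 1 (-0.99 ± 0.08, adjusted p = 1.84e-06), stood at 0.17 ± 0.08 at day 3, which was not called, and rose at day 14 (0.71 ± 0.08, adjusted p = 3.99e-05). Pros1, which encodes protein S, rose at every day, by 0.75 ± 0.16 at day 1 and 1.55 ± 0.16 at day 5 (adjusted p = 0.00195 and 6.66e-06). Tyro3 fell at day 1 (-0.42 ± 0.06, adjusted p = 0.000225) and lay between -0.08 and 0.05 at all later days, none of which was called.

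Cd14 encodes the co-receptor that hands bacterial lipopolysaccharide to Tlr4 and Ly96, and it also binds apoptotic cells. It was the earliest of the 10 genes, and its levels in the right and left pools were 7.01 and 7.28 on day 0, 10.04 and 10.70 on day 1, 9.34 and 9.49 on day 3, 9.07 and 9.01 on day 5, 8.83 and 8.82 on day 7, 8.54 and 8.46 on day 10, and 7.87 and 8.03 on day 14. From day 3 on, both pools of each day lay below both pools of the day before. Cd14 rose 9.33-fold at day 1 (3.22 ± 0.17, adjusted p = 6.88e-08). It was the only one of the 10 genes called lower at day 3 than at day 1 (-0.95 ± 0.17, adjusted p = 0.00139), at which step Gpnmb, Folr2, Lyve1, Lgals3, Axl and Cd68 rose. At day 14 it was 1.74-fold above day 0 (0.80 ± 0.17, adjusted p = 0.00318), which left 24.9% of its day 1 rise on the log2 scale.

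The single steps of Cd14 after day 3 were not called, with differences between -0.55 and -0.21. The 2 pools of day 1 differed by 0.66, the widest gap between pools of a day among the 10 genes. With either one of them left out, 3 of these steps were called: day 3 to day 5 (-0.38, adjusted p = 0.0379), day 7 to day 10 (-0.33, adjusted p = 0.0487) and day 10 to day 14 (-0.55, adjusted p = 0.0166). Neutrophil markers were also highest at day 1: of 13 measured, 8 rose and 0 fell, with Cxcr2 (5.14 ± 0.35) and Csf3r (4.19 ± 0.22) in front. Their summed intensity was 24030 and 33290 in the right and left pools of day 1, and 10465 and 4865 in those of day 0. Of 10 monocyte markers, 8 rose at day 1, led by Plac8 (3.82) and Ccr2 (3.63). Among all genes 20.3% rose and 34.7% fell at that day. The parts of neutrophils and monocytes in the early peak of Cd14 were not tested. The genes closest to Cd14 over the 14 arrays were Nfkbid, an inhibitor of NF-kappaB, Clec4d, a lectin of myeloid cells, and Trim30d, with Pearson r of 0.994, 0.988 and 0.986.

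The other genes of lipopolysaccharide recognition were mostly raised. Of 15 measured, 12 rose and 1 fell at day 1, 12 rose and 0 fell at day 3, 12 rose and 1 fell at day 7, and 13 rose and 1 fell at day 14. Among all genes 20.3%, 24.2%, 28.5% and 21.4% rose at these days, and 34.7%, 23.4%, 37.8% and 20.7% fell. After quantile normalization the counts were 11 and 1 at day 3, 10 and 2 at day 7, and 11 and 2 at day 14. Tlr4 and Ly96, singled out as the partners of Cd14 after their values were seen, are given beside it. Tlr4 rose by 2.70 ± 0.10 at day 1 and by 1.75 ± 0.10 at day 14 (adjusted p = 5.58e-09 and 2.70e-07). Ly96 rose by 1.20 ± 0.18 at day 1 and by 2.22 ± 0.18 at day 5 (adjusted p = 0.000167 and 1.08e-06). Lbp, the serum protein that loads Cd14, fell at day 1 (-0.59 ± 0.14, adjusted p = 0.00464) and was higher at day 14 (1.27 ± 0.14, adjusted p = 3.40e-05).

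Folr2 encodes folate receptor beta, a marker of tissue-resident macrophages. Its levels in the right and left pools were 9.0 and 8.91 on day 0, 9.52 and 9.32 on day 1, 10.91 and 10.95 on day 3, 10.83 and 11.03 on day 5, 10.60 and 10.39 on day 7, 9.67 and 9.87 on day 10, and 9.53 and 9.70 on day 14. Days 3 and 5 stood highest and overlapped, and day 14 overlapped day 10. Folr2 was 1.38-fold above day 0 at day 1 (0.47 ± 0.11, adjusted p = 0.00478), 3.93-fold at day 3 (1.97 ± 0.11, adjusted p = 9.24e-08) and 1.58-fold at day 14 (0.66 ± 0.11, adjusted p = 0.000757). The day 1 call was lost without the right pool of day 1 and the left pool of day 0, which were rich in hepatocyte transcripts (0.32, adjusted p = 0.121). Folr2 rose by 1.51 ± 0.11 from day 1 to day 3 (adjusted p = 3.99e-06) and fell by 0.72 ± 0.11 from day 7 to day 10 (adjusted p = 0.00228). The genes closest to it were Nme1, Nlrp1b and Rrm2, with Pearson r of 0.984, 0.977 and 0.976, and Rrm2 encodes a subunit of ribonucleotide reductase, needed for DNA synthesis.

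Lyve1 encodes a hyaluronan receptor of lymphatic endothelium that resident macrophages along vessels also carry. It was raised at day 3 alone: its levels in the right and left pools were 9.40 and 9.40 on day 0, 9.44 and 9.11 on day 1, 10.12 and 10.02 on day 3, 9.59 and 9.44 on day 5, 9.09 and 9.16 on day 7, 9.28 and 9.14 on day 10, and 9.66 and 9.43 on day 14. Both day 3 pools lay above every other pool. Lyve1 rose 1.59-fold at day 3 against day 0 (0.67 ± 0.12, adjusted p = 0.000506) and fell by 0.95 ± 0.12 from day 3 to day 7 (adjusted p = 0.000183). The other days lay between -0.28 and 0.14 of day 0 and were not called. Day 7, at -0.28 ± 0.12 (adjusted p = 0.0521), was called lower under quantile normalization (-0.50, adjusted p = 0.00455) and with equal array medians (-0.41, adjusted p = 0.00795).

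Markers of both cell types that carry Lyve1 are given beside it. Of 9 lymphatic endothelial genes, 3 rose and 2 fell at day 3 (2 and 3 with equal array medians), the falls being Mmrn1 (-1.01 ± 0.21) and Reln (-0.61), while Prox1, the transcription factor that defines lymphatic identity, stood at -0.10 ± 0.26. The rises were led by Pdpn (2.79 ± 0.07), which fibroblasts and macrophages also make, and Fgl2 (1.57), while the list's median difference was -0.08 at day 3 and 0.05 at day 1. The summed intensity of the list was between 5794 and 5898 at day 3 and between 2296 and 2413 at day 0. Without Pdpn and Fgl2, left out after their values were seen, the other 7 genes summed to between 1235 and 1380 at day 3 and between 1440 and 1575 at day 0. Of 18 tissue-resident macrophage genes, 8 rose and 0 fell at day 3 (8 and 1 with equal array medians), and 8 rose and 7 fell at day 7. Among all genes 24.2% rose and 23.4% fell at day 3, and 28.5% rose and 37.8% fell at day 7. The falling share of these 18 genes at day 7 was thus near that of all genes. The median difference of these 18 genes was 0.31 at day 3 and 0.23 at day 7, and the day 3 rises were led by Ccl8 (3.56) and Pf4 (3.25). Their summed intensity was between 36356 and 36876 at day 3, between 28136 and 29112 at day 7 and between 18197 and 19090 at day 0. Cd163, a haemoglobin scavenger receptor in that list, was among the 3 genes closest to Lyve1 (Pearson r 0.858, after Traip at 0.871 and Kcnq1 at 0.867), and it rose at day 3 (1.11 ± 0.13, adjusted p = 2.81e-05) and stood at 0.08 ± 0.13 at day 7. Other genes of that list went both ways at day 7: Ccl8 (3.69 ± 0.14) and Mrc1 (2.59 ± 0.09) rose most, and the lectins Cd209f (-1.10 ± 0.18) and Cd209d (-0.87 ± 0.15) fell most. The parts of lymphatic endothelium and of resident macrophages in the course of Lyve1 were not tested. Markers of Kupffer cells and liver sinusoids, which also carry Lyve1 and Marco, had a mean level of 8.67 in the right pool of day 1 and 8.38 in the left pool of day 0, against 7.81 and 7.82 in the other pools of those days. Without those first 2 pools Lyve1 at day 3 and Marco at day 1 kept their calls, and Marco at day 14 lost its call (-0.37, adjusted p = 0.0542).

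General macrophage markers were raised over the same days as most of the group. Of 17 measured, 15 rose and 0 fell at day 1, all 17 rose at days 3, 5, 7 and 10, and 16 rose at day 14. Among all genes between 20.3% and 28.5% rose at these days. Over days 1, 3, 5, 7, 10 and 14 their median difference was 2.29, 2.87, 2.64, 2.53, 2.28 and 1.60. At day 1 their differences ran from 0.17 to 3.86, with Itgam (3.86) and Cd53 (3.76) the largest. The part of neutrophils in the day 1 median was not tested. The summed intensity of the list was between 60444 and 61716 at day 3, between 29073 and 30687 at day 14 and between 8433 and 9806 at day 0.

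Set beside that median, the 10 genes spread to both sides. Msr1 stood 1.43 above it at day 1 and 0.62 below it at day 10. Cd14 stood 0.93 above it at day 1 and between 0.60 and 0.93 below it at every later day. Gpnmb stood 0.96 below it at day 1 and between 0.56 and 1.08 above it from day 3 on. Cd68 stood between 0.19 and 0.98 above it at every day. Mertk, Axl and Folr2 stood below it at every day, Axl by 2.18 at day 3 and by 0.55 at day 14. At day 14 the differences of 3 of the 17 markers were larger than that of Gpnmb, and those of 16 were larger than that of Cd14. These distances are between log2 differences of different genes and were not tested. Of 10 dendritic cell markers, 7 rose and 1 fell at day 7, where 28.5% of all genes rose and 37.8% fell. Their median difference was 0.48, the rises were led by Cd74 (2.06) and Itgax (1.89), and Zbtb46 fell (-0.56). Of 10 blood endothelial markers 8 rose and 2 fell at that day (5 and 2 after quantile normalization). Pecam1 (0.67) and Erg (0.55) rose most and Kdr (-0.62) fell most.

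**Figure D3:**
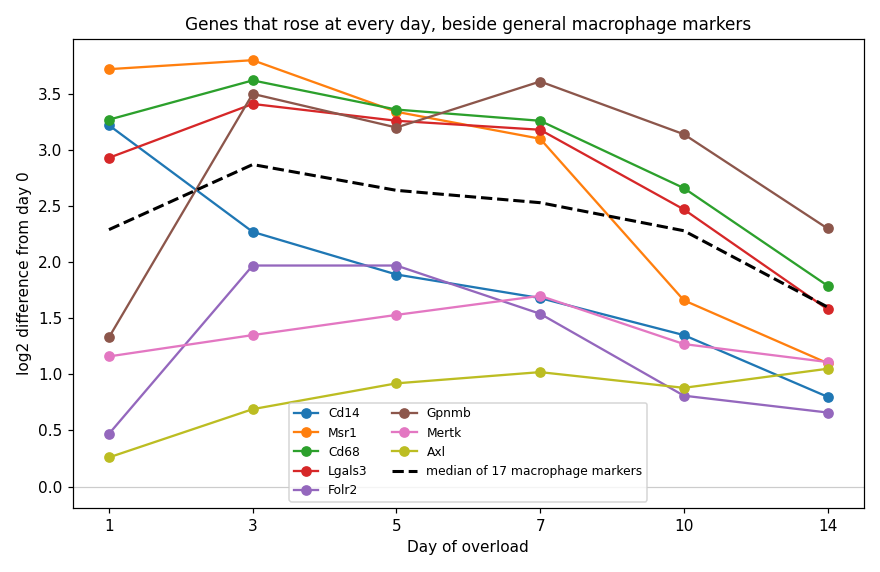
Difference from day 0 in log2 units (vertical axis) by day (horizontal axis, days drawn at equal steps) for the 8 genes that rose at every day, with the median of 17 general macrophage markers as a dashed line. Cd14 crosses below the dashed line after day 1, Gpnmb crosses above it, and Axl stays below it and reaches 1.05 at day 14.

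The other genes of these functions were read from lists. For the list counts that follow, the shares of all genes that rose were 20.3%, 24.2%, 28.5% and 21.4% at days 1, 3, 7 and 14. The shares that fell were 34.7%, 23.4%, 37.8% and 20.7%. Of 21 further scavenger receptors, 8 rose and 8 fell at day 1, 12 rose and 3 fell at day 3, 12 rose and 4 fell at day 7, and 13 rose and 2 fell at day 14. At day 1 the rises were led by Clec7a (2.68 ± 0.14), the beta-glucan receptor, and Olr1 (2.16 ± 0.14), a receptor of oxidised lipoprotein. At day 3 they were led by Mrc1 (2.95 ± 0.09), the mannose receptor, and Stab1 (2.79 ± 0.07), and at day 14 by Ssc5d (2.12 ± 0.09) and Cxcl16 (1.91 ± 0.09). Cd36, a fatty acid transporter of muscle as well as a scavenger receptor, fell at every day, by 0.94 ± 0.08 at day 1 and 0.63 ± 0.08 at day 14. Stab2, a hyaluronan receptor of liver sinusoids, fell at day 7 (-1.03 ± 0.13).

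Of 32 genes for clearing apoptotic cells, 21 rose and 6 fell at day 1, 23 rose and 0 fell at day 3, 25 rose and 2 fell at day 7, and 21 rose and 1 fell at day 14. With equal array medians the counts were 21 and 1 at day 3, 23 and 4 at day 7, and 21 and 3 at day 14. Tyrobp, the signalling adaptor of Trem2, rose by 3.08 ± 0.15 at day 3, and the complement chain C1qb rose by 2.99 ± 0.10 at day 7. Timd4, a phosphatidylserine receptor of resident macrophages, fell at day 7 (-0.41 ± 0.09). Cd300lf, an inhibitory receptor of myeloid cells, rose by 2.98 ± 0.21 at day 1.

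Most lysosomal genes were raised at the last day too. Of 29 measured, 22 rose and 4 fell at day 1, 22 rose and 2 fell at day 3, 23 rose and 2 fell at day 7 (23 and 4 with equal array medians), and 20 rose and 4 fell at day 14. Ctss, a cathepsin of macrophages, rose by 3.57 ± 0.09 at day 3. Atp6v0d2, a proton pump subunit of macrophages and osteoclasts, rose by 3.56 ± 0.26 at day 7, and the collagenolytic cathepsin Ctsk rose by 2.87 ± 0.16 at day 14. Tfeb, a transcription factor of lysosomal genes, fell at every day, by 1.22 ± 0.08 at day 7.

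Of 15 genes of lipid handling in macrophages, 8 rose and 3 fell at day 1, 10 rose and 2 fell at day 3 (10 and 1 after quantile normalization), 10 rose and 3 fell at day 7 (10 and 5 with equal array medians), and 8 rose and 3 fell at day 14. Fabp5, a fatty acid carrier, and Trem2, a lipid-sensing receptor, rose at day 3 (2.88 ± 0.10 and 2.34 ± 0.13), and Mmp12, the macrophage elastase, rose by 1.76 ± 0.15 at day 14. Lpl, the lipase of muscle and fat capillaries, fell by 1.93 ± 0.09 at day 3. Of 14 genes of folate uptake and hyaluronan, 8 rose and 2 fell at day 3. The hyaluronan receptor Cd44 led (2.73 ± 0.10), followed by the hyaluronan-binding proteoglycan Vcan (2.60 ± 0.11), and the hyaluronan synthase Has3 fell (-0.55 ± 0.09).

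**Figure D4:**
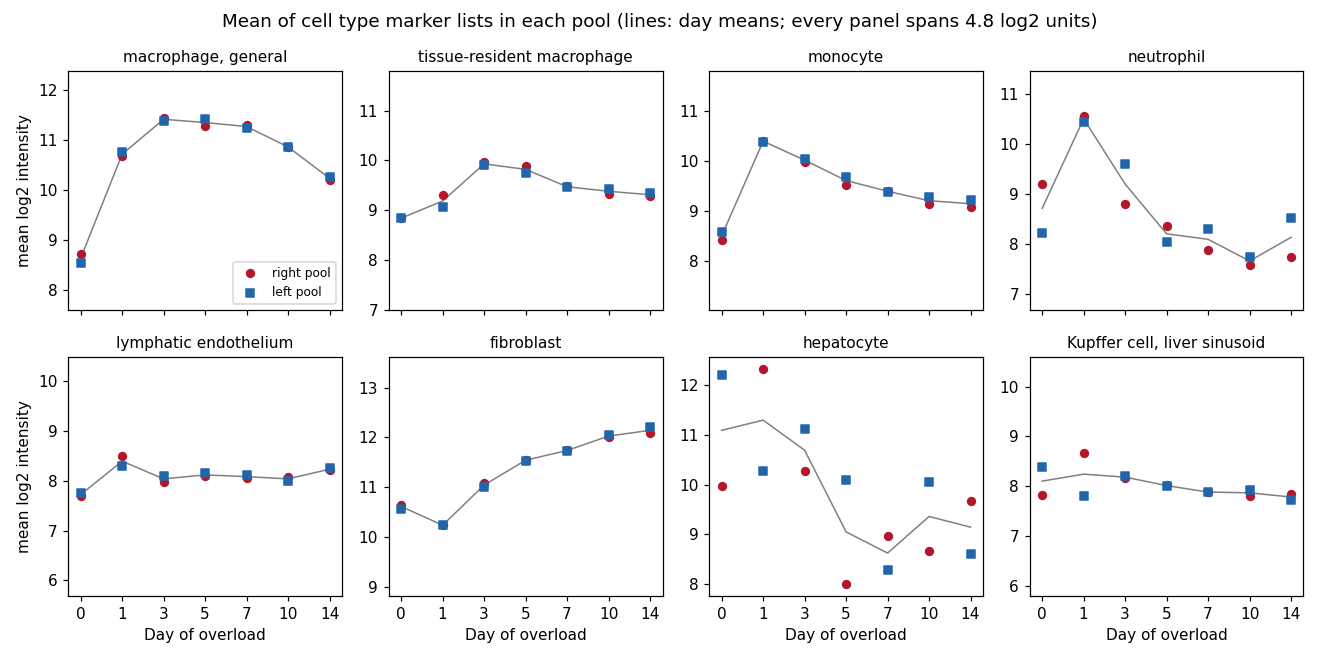
Mean log2 intensity of each of 8 lists of cell type markers (vertical axis) in every pool by day of overload (horizontal axis, days drawn at equal steps), with right pools as red circles, left pools as blue squares and day means as lines. Neutrophil markers are highest at day 1, fibroblast markers are highest at day 14, and the hepatocyte list differs between pools of a day, with 12.32 in the right pool of day 1 and 12.20 in the left pool of day 0.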

How the data were processed

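Mouse plantaris RNA was hybridised to 14 arrays (Affymetrix Mouse Gene 1.0 ST), with 2 pools for each of 7 days. The deposited values are linear intensity, 1 value per probe set, made by the authors with Partek per the submitters' processing notes, with no version, summarisation or normalization given in the sources used here. The design text gives 100 ng of RNA for labelling and the label protocol 250 ng. The number of arrays, not a read depth, limits the precision.

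Log2 intensity was used as deposited. Of 35556 probe sets, 21789 had 1 gene symbol, 1621 had several and 12146 had none in the array annotation, and the brightest single-symbol probe set stood for each of 19938 genes. limma 3.58.1 (R 4.3.3) was fitted with 1 mean per day over all arrays (7 residual and 3.88 prior degrees of freedom). All 21 day pairs were tested two-sided, with Benjamini-Hochberg adjustment over all genes within each pair, and the fit was tested on simulated data. Right and left pools did not pair across days: right-minus-left differences correlated between -0.58 and 0.44 over 21 day pairs, 9 of them over 0.1.

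The 10 members, the gene lists and the alternatives were chosen with earlier results of these data known. Besides the members, the text names the 3 genes most correlated with each member over the 14 arrays, leaving out gene models and receptor or RNA families, and up to 2 of the largest called rises and falls per list and day. Exceptions named after their values were seen are Pros1, Tyro3, Gas6, Tlr4, Ly96, Lbp and Prox1 at days outside that rule and Cd163 at day 7. Figures were drawn with matplotlib 3.10.9.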

Additional observations from a re-analysis of the deposited data

Results flagged for a closer look

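Lyve1 at day 1 was not called different from day 0 (-0.13 ± 0.12, limma adjusted p = 0.371), and its right and left pools lay on opposite sides of the day 0 pools. The right pool of day 1 was 0.04 above the right pool of day 0, and the left pool was 0.29 below the left pool of day 0, a right minus left difference in effect of 0.33 on the log2 scale. The difference was not tested, since each side has 1 pool per day. The 2 day 0 pools both stood at 9.40, so the gap came from the day 1 pools, at 9.44 and 9.11. The right pool of day 1 is also one of the 2 pools rich in hepatocyte and liver sinusoid transcripts, and the part of those in the gap was not tested.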

How the results depend on the processing

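Of the 55 called differences from day 0 among 60, 47 were tested under all 25 alternatives and kept their call and sign. The falls of Marco at days 1, 3, 5 and 7 kept theirs under the alternatives that tested it. The others were Marco at days 10 and 14, Axl at day 1 and Folr2 at day 1. The cause of the changes below was not tested. The count of falling members was 0 at days 1, 3, 5, 10 and 14 without the dimmest class of genes, where Marco was no longer tested. It was 2 at day 7 under quantile normalization, equal array medians, the trended and the robust variance prior, log2 of intensity plus 16 and a fit of only the arrays of the 2 days, as Lyve1 was then called. It was 2 at day 10 under quantile normalization and equal array medians, and 0 at day 14 with both pools rich in hepatocyte transcripts left out. From day 3 to day 5 the rising count was 1 under quantile normalization, without the dimmest class, with the trended prior and with log2 of intensity plus 16, and the falling count was 1 with all probe sets tested and with only the arrays of the 2 days. From day 10 to day 14 the falling count was 2 with all probe sets tested. With 1 array left out at a time, the falling counts ranged from 1 to 2 on day 7, 0 to 1 on day 10, 0 to 1 on day 14, 0 to 3 from day 3 to day 5 and 2 to 5 from day 10 to day 14, and the rising count from day 7 to day 10 ranged from 0 to 1.

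Signs turned only for differences that were not called. Day 3 minus day 1 of Msr1 was -0.05 with equal array medians. Day 5 minus day 0 of Lyve1 was -0.08 after quantile normalization and -0.01 on arrays of equal medians, and day 5 minus day 3 of Folr2 was -0.02 and -0.01 under the same settings. With 1 array left out, the ranges were -0.05 to 0.21 for Msr1 (day 3 minus day 1), -0.15 to 0.12 for Marco (day 7 minus day 5), -0.01 to 0.07 for Axl (day 14 minus day 7), -0.19 to 0.04 for Lgals3 (day 7 minus day 5), -0.29 to 0.04 for Lyve1 (day 1 minus day 0) and -0.10 to 0.10 for Folr2 (day 5 minus day 3). With right or left side as a replicate block, the falling count at day 7 was 2 (Lyve1 -0.28, adjusted p = 0.0269) and no other count of rising or falling members changed by over 1.5 times. The side itself was called for 0 of 19938 genes by limma (586 at an unadjusted p under 0.05). The right-minus-left differences of each day were also correlated with those of the other days. For 1 of 7 days the largest positive correlation exceeded the largest negative one in size.

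With equal array medians, called genes that rose made up 40.8%, 38.1%, 31.3%, 32.5%, 33.8% and 36.7% of calls on days 1, 3, 5, 7, 10 and 14, where the deposited values gave 36.9%, 50.8%, 41.5%, 43.0%, 46.1% and 50.9%. Low signal limits Marco, whose mean level lay under the bound of the dimmest class of genes (7.50).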
